A study of Mus musculus with 12 samples.

Results

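The genes described here encode surface receptors that myeloid cells use to bind sugars, antibodies and lipids, and their close relatives. They were chosen by symbol: every mouse gene whose name starts with Clec, Siglec, Fcgr, Fcer, Ms4a, Cd300 or Lilr, except Clec4f, Clec4g, Clec9a, Siglech, Fcgr2b and Ms4a1. RefSeq holds 79 such genes, 72 of them had a probe on the array (93 of 55681 gene probes), and 46 were measured well enough to be tested, among 13900 genes tested in all. The families with a probe were Clec with 29 genes, Ms4a with 18, Cd300 with 9, Siglec with 5, Fcgr with 4, Lilr with 4 and Fcer with 3. The name of a family is not a cell type, and some members are known mainly from endothelial cells, lymphocytes or secreted proteins.

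C-type lectin receptors (Clec) recognise sugars and lipids of microbes and dying cells, Siglecs bind sialic acids, Fcgr and Fcer receptors bind the constant part of antibodies, Cd300 receptors bind membrane lipids, and Lilr receptors include binders of major histocompatibility complex proteins. Activating members signal through adaptors that carry an ITAM, a tyrosine motif that recruits the kinase Syk, while inhibitory members carry an ITIM that recruits phosphatases. Ms4a proteins span the membrane several times and are found on many leukocytes. In liver, resident macrophages (Kupffer cells) and recruited monocytes carry many of these receptors.

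The livers came from male C57BL/6NJcl mice that were fed either CDAHFD, a choline-deficient, L-amino acid-defined diet with 60 kcal% fat and 0.1% methionine that produces steatohepatitis, or the chow CE-2 as control, for 1, 2 or 6 weeks, at ages of 7, 8 and 12 weeks. The control chow was not matched to CDAHFD in composition, so single ingredients cannot be told apart. Each of the 6 groups held 2 arrays of whole-liver RNA, hybridised in 1 colour. The labels number the arrays as replicates without saying that each came from a separate mouse, so the p-values reflect only how far these arrays scatter, and that scatter can be technical. Whole-liver RNA was measured, so fewer cells of a type and less RNA per cell cannot be told apart.

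Between 45.4% and 49.65% of the gene probes were well above background on the CDAHFD arrays, against 40.37% to 44.39% on the control arrays. The first principal component held 64.7% of the variance and separated the diets. The control pair of 1 week stood apart: the SD of the log2 difference between its arrays was 0.85, against 0.29 to 0.49 in the other groups, and its replicate 1 had a dim corner of 264 spots in 17 blocks of the array. That array lies at 82.14 on the second component (14.8% of the variance). The arrays of weeks 1 and 2 lay on one slide and those of week 6 on another, so that each diet comparison lies within a slide.

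Values are normalised intensities, which are linear, and differences are on the log2 scale, CDAHFD minus control, ± the standard error of a limma fit over all 12 arrays after subtracting the all-gene median of that week (0.13, 0.05 and 0.03 at 1, 2 and 6 weeks). A gene was called when its Benjamini-Hochberg adjusted p was under 0.05. At 1 week 27 of the 46 tested receptor genes were higher on CDAHFD, where 25.9% of all genes tested were, and 3 were lower, where 15.0% of all genes were. At 2 weeks 29 were higher and 3 were lower, beside 22.9% and 14.9% of all genes. At 6 weeks 28 were higher and 6 were lower, beside 24.5% and 16.2% of all genes. The median difference of the 46 was 1.31, 1.81 and 1.5 at 1, 2 and 6 weeks, beside a median of 0 for all genes by construction. With genes below background set at their bound it was 1.10, 1.60 and 1.35. It was smaller under another background correction, normexp (0.42, 0.74 and 0.81). Without the filter on dim probes the median was 0.80, 0.47 and 0.51, but it then ran over all 72 receptor genes with a probe, undetected ones included. In 25 genes the call was higher at all 3 weeks, in 31 at 1 or more weeks, and 8 genes were called at no week. The shares of all genes with such calls across weeks were not counted.

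These counts cover tested genes, and 10 of the 46 entered the test only through their CDAHFD arrays, which had to be high for that, while 0 entered only through control arrays. Among the 28 receptor genes well above background on all 12 arrays, 15, 16 and 15 were higher at 1, 2 and 6 weeks, where 24.1%, 20.3% and 21.3% of all genes with such detection were. Of these 28 genes, 3, 3 and 6 were lower, where 17.2%, 17.2% and 18.4% of all such genes were, and their median difference was 0.86, 1.09 and 1.18. Averaged over the weeks, 32 of the 46 were higher (35.6% of all genes) and 10 were lower (25.7% of all genes). In 28 of the 46 every CDAHFD array exceeded every control array, as in 21.1% of all genes, and in 4 every CDAHFD array lay below every control array, as in 11.0% of all genes.

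**Figure D1:**
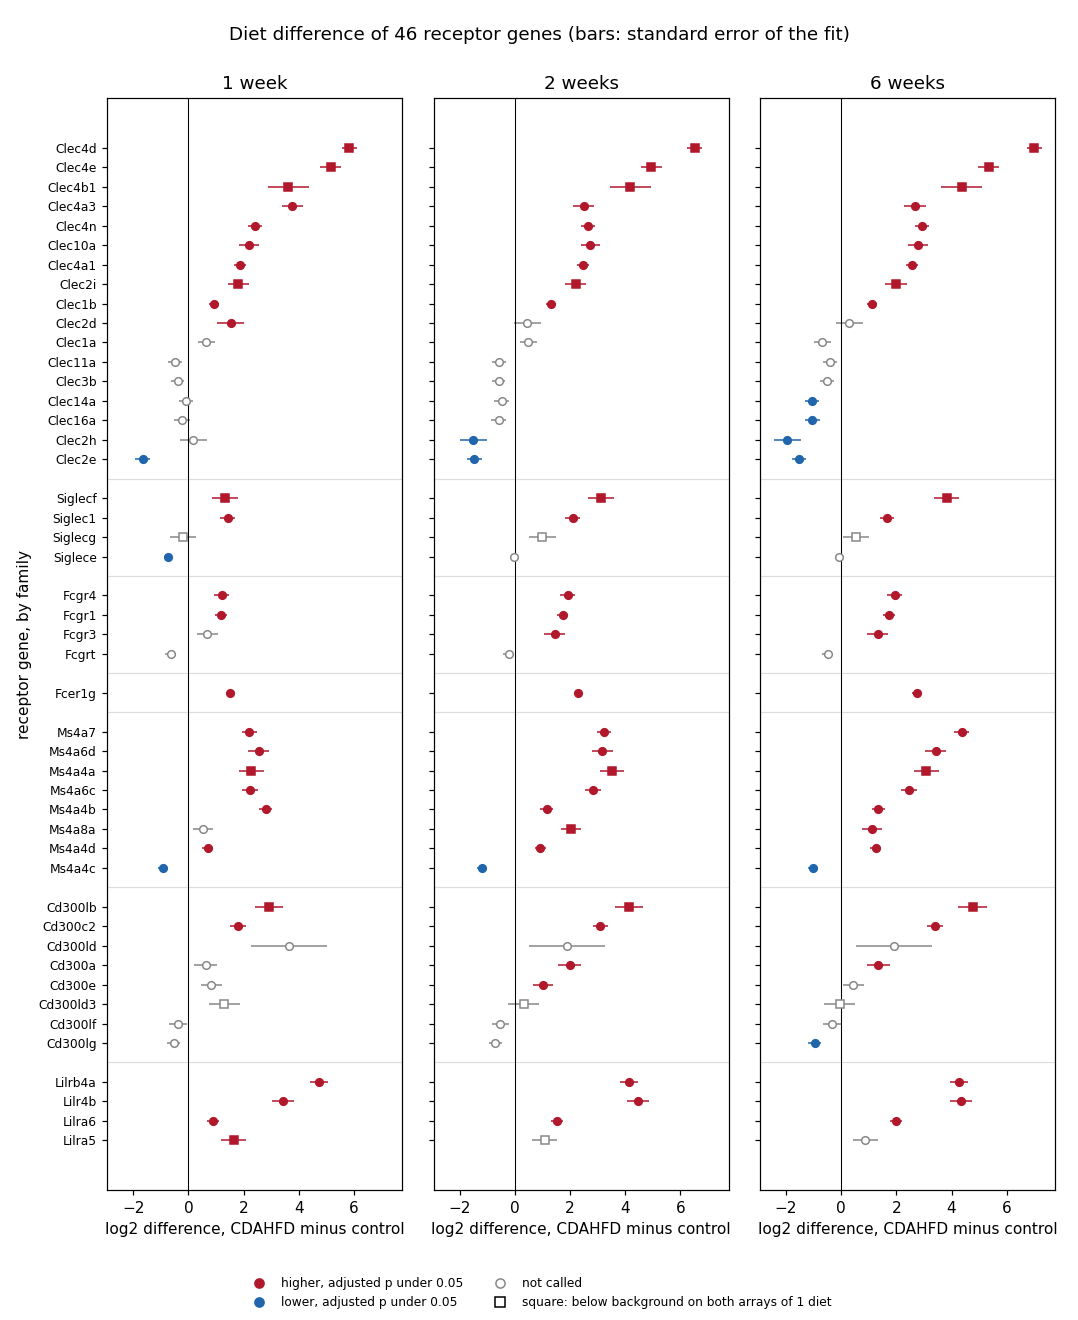
Diet difference (x axis, log2, CDAHFD minus control, with the all-gene median subtracted) of the 46 tested receptor genes, by family, at 1, 2 and 6 weeks. Points are fitted differences, bars their standard errors, filled points passed the test, and squares mark genes below background on both arrays of 1 diet. Clec4d lies highest, at 5.83, 6.52 and 6.99, and 27, 29 and 28 genes were higher.

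In 8 genes, namely Clec4d, Clec4e, Clec4b1, Cd300lb, Ms4a4a, Siglecf, Clec2i and Siglecg, no control array at any week was well above background, and only a bound can be given for the control level. The fitted differences of such genes are no bound, so the fold written as "at least" stands beside them. That fold rests on the lowest detected signal of each array and takes no account of scatter. A probe can be missed above that signal, as Siglecg was at 19.2 on control replicate 1 of 1 week, where it was 17.8. Some of these differences nearly vanished or turned under normexp, as given below, so the folds are not firm lower limits. Control arrays were below background in 10, 11 and 8 genes at 1, 2 and 6 weeks. Before scaling, the control arrays were dimmer. The 75th percentile of the probes detected on all arrays was 855.9 to 1409.3 on control, against 1555.1 to 1919.6 on CDAHFD. The lowest detected intensity after scaling was higher on control arrays (11.8 to 17.8) than on CDAHFD arrays (7.97 to 10.95). A like value could thus be detected on CDAHFD only. At 1 week Siglecg read 19.2 and 13.3 on control, not detected, and 17 and 13.7 on CDAHFD, detected. How far this shaped detection was not tested. In 28 genes all 6 control arrays were well above background, and in 45 all 6 CDAHFD arrays were. The exception on CDAHFD was Cd300ld3, which on CDAHFD was above background on both arrays at 1 week, on 1 at 2 weeks and on none at 6 weeks.

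**Figure D2:**
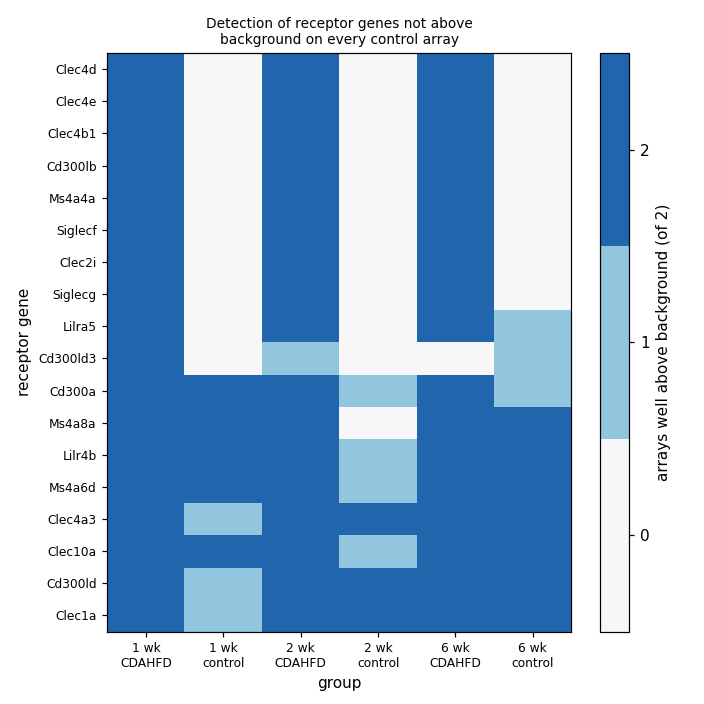
Number of arrays (colour, 0 to 2) well above background in each of the 6 groups (x axis) for the 18 receptor genes (y axis) that missed background on at least 1 control array. The CDAHFD columns are full for 17 of these, all but Cd300ld3, while the control columns are empty at all weeks for the 8 genes listed above.

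Among the C-type lectins, a run of 9 adjoining genes on chromosome 6 held Clec4d and Clec4e, both below background on every control array. Clec4d, also named MCL, and Clec4e, also named Mincle, are activating receptors for glycolipids of mycobacteria, and Mincle also binds a protein set free by dying cells. Clec4d measured 635 and 404 at 1 week, 822 and 1000 at 2 weeks and 1500 and 1140 at 6 weeks on CDAHFD, against 7.35 and 9.05, 8.90 and 10.3, and 8.32 and 12.1 at the same weeks on control. The 2 diets were far apart at every week. Clec4d was at least 31.9-fold, 59.7-fold and 95.6-fold higher on CDAHFD at 1, 2 and 6 weeks. The difference of Clec4d was 5.83 ± 0.27, 6.52 ± 0.27 and 6.99 ± 0.27 at 1, 2 and 6 weeks (limma, adjusted p = 1.45e-06, 4.06e-07 and 1.98e-07).

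Clec4e read 155 and 83.6 at 1 week, 79.6 and 129 at 2 weeks and 131 and 96.0 at 6 weeks on CDAHFD, against 3.56 and 2.41, 3.58 and 2.81, and 2.67 and 2.70 at the same weeks on control. No control array overlapped a CDAHFD array. Clec4e was at least 7.19-fold, 6.67-fold and 8.20-fold higher on CDAHFD at 1, 2 and 6 weeks. For Clec4e the differences were 5.15 ± 0.38, 4.95 ± 0.38 and 5.35 ± 0.38 at 1, 2 and 6 weeks (limma, adjusted p = 1.02e-05, 7.07e-06 and 3.36e-06).

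Clec4n, also named Dectin-2, binds fungal mannans and was measured on every array. Intensities of Clec4n were 1160 and 1050 at 1 week, 986 and 1240 at 2 weeks and 1420 and 1300 at 6 weeks on CDAHFD, against 205 and 177, 121 and 235, and 168 and 184 at the same weeks on control. The ranges of the diets did not overlap, and the differences of Clec4n were 2.40 ± 0.26, 2.66 ± 0.26 and 2.92 ± 0.26 at 1, 2 and 6 weeks (limma, adjusted p = 6.98e-05, 3.07e-05 and 1.42e-05).

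Clec4b1 (DCAR), an activating receptor of dendritic cells and monocytes, was above background only on CDAHFD. Clec4b1 measured 91.4 and 68.9 at 1 week, 117 and 150 at 2 weeks and 177 and 159 at 6 weeks on CDAHFD, against 12.8 and 2.74, 4.45 and 11.0, and 4.71 and 13.5 at the same weeks on control. Neither control array of any week was well above background. Clec4b1 was at least 5.0-fold, 8.71-fold and 12.3-fold higher on CDAHFD at 1, 2 and 6 weeks. Differences of Clec4b1 came to 3.61 ± 0.74, 4.19 ± 0.74 and 4.36 ± 0.74 at 1, 2 and 6 weeks (limma, adjusted p = 0.00406, 0.00211 and 0.00154). Its control arrays differed widely, and without control replicate 2 of 1 week the difference at 1 week was 2.51, and without replicate 1 it was 4.73. At 2 weeks the difference was 4.83 and 3.56 without control replicates 2 and 1, and at 6 weeks 5.11 and 3.60.

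Clec4a3 belongs to the DCIR-like group of the same run. Clec4a3 read 198 and 169 at 1 week, 166 and 268 at 2 weeks and 308 and 214 at 6 weeks on CDAHFD, against 8.14 and 18.5, 29.5 and 44.4, and 36.5 and 42.5 at the same weeks on control. The control arrays of 1 week were the dimmest of the 6. The difference of Clec4a3 was 3.77 ± 0.39, 2.49 ± 0.39 and 2.67 ± 0.39 at 1, 2 and 6 weeks (limma, adjusted p = 6.77e-05, 0.000652 and 0.000388). Its probe lay in the dim corner of control replicate 1 of 1 week, and with those spots masked the differences were 3.18, 2.49 and 2.67 (limma, adjusted p = 9.85e-05, 0.000101 and 5.72e-05). The difference at 1 week was 3.18 without control replicate 1 and 4.37 without replicate 2.

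Clec4a1, of the same group, was called higher too, with differences of 1.86 ± 0.22, 2.46 ± 0.22 and 2.58 ± 0.22 at 1, 2 and 6 weeks (limma, adjusted p = 8.85e-05, 1.46e-05 and 8.19e-06). The run on chromosome 6 holds Clec4a1, Clec4a3, Clec4a4, Clec4b1, Clec4a2, Clec4b2, Clec4n, Clec4d and Clec4e in this order. All 6 of its tested genes were higher at all 3 weeks, and the share of all genes with such calls was not counted. Of the 6, Clec4b1, Clec4d and Clec4e entered the test only through their CDAHFD arrays, which had to be high for that. Clec4a4, Clec4a2 and Clec4b2 did not pass the detection filter. These genes are closely related in sequence, and how far a probe for one also binds another was not tested.

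The 120 bases before the start are shown for the genes of this run that were tested and have an entry. The run was chosen after the values were seen, because its tested members were called higher. The bases come from RefSeq (GRCm38.p6), 5′ to 3′ on the gene's strand, with capitals for the letters of 5 short motifs. The motifs, searched on both strands, were GAGGAA (a box bound by the myeloid factor PU.1), TTGCNNAA (C/EBP), TGANTCA (AP-1), a composite of PU.1 and IRF (GGAA and GAAA with 2 bases between) and an interferon response motif (GAAA repeated with 2 bases between), and these can overlap one another. Clec4b1 lies at chr6:123049842-123049961 on the plus strand, Clec4d at chr6:123261987-123262106 on the plus strand, and Clec4e at chr6:123289872-123289991 on the minus strand. Clec4a1 lies at chr6:122921728-122921847 on the plus strand. Clec4a3 has 2 starts, at chr6:122952395-122952514 and chr6:122952524-122952643 on the plus strand, and both are shown. Clec4n has no entry.
Clec4a1: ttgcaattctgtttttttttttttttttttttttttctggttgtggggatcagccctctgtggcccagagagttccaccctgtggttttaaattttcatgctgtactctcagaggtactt
Clec4a3, first start: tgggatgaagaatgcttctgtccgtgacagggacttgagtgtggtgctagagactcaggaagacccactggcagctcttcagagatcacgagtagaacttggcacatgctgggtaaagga
Clec4a3, second start: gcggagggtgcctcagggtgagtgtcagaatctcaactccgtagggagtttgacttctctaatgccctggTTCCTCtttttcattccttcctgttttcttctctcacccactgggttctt
Clec4b1: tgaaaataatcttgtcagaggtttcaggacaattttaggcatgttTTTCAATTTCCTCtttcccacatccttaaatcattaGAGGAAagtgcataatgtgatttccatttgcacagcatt
Clec4d: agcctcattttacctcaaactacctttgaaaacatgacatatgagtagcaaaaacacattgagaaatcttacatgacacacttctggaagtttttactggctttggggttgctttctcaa
Clec4e: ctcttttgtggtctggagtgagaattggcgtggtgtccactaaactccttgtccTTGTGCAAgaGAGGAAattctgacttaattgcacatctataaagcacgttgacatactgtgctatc
In the 120 bases, the box GAGGAA stands before the second start of Clec4a3, before Clec4b1 and before Clec4e, and Clec4e has a C/EBP motif beside it. Before Clec4a1, the first start of Clec4a3 and Clec4d no motif was found, which says only that these letters are not in this window. Over the longer windows described next, Clec4a1 and Clec4d did hold GAGGAA outside these 120 bases. There Clec4a1 also held the composite, and Clec4d the interferon response motif.

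Over the whole windows, from 250 bases before to 50 after the start, 59 of the receptor genes had a sequence. A longer PU.1 motif, GAGGAAGT, was searched first, and the shorter box was added after its counts had been seen. GAGGAAGT stood in 2 of 20 genes higher at all 3 weeks (10.0%), in 3 of 18 other tested receptor genes (16.7%), in 1 of 21 below background (4.8%) and in 3.7% of 27025 genes in all. GAGGAA stood in 12 of 20 (60.0%), 13 of 18 (72.2%) and 9 of 21 (42.9%) of these sets and in 31.3% of all genes. The share was thus no higher among the genes higher at all 3 weeks than among the other tested ones. Those others include genes called higher at only some weeks and genes called lower, so genes that moved were not set against genes that did not. The composite stood in 2 of 20, 1 of 18 and 0 of 21 genes, and in 3.2% of all. The interferon response motif stood in 4 of 20, 1 of 18 and 1 of 21 genes, beside 4.0% of all. C/EBP letters were found in 3 of 20, 6 of 18 and 4 of 21 genes, against 12.2% of all, and AP-1 letters in 2 of 20, 3 of 18 and 5 of 21, against 9.0% of all.

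Outside the run, Clec10a, also named MGL1, binds galactose and N-acetylgalactosamine. Intensities of Clec10a were 168 and 130 at 1 week, 181 and 199 at 2 weeks and 203 and 146 at 6 weeks on CDAHFD, against 33.5 and 26.2, 19.0 and 39.4, and 18.6 and 32.6 at the same weeks on control. The CDAHFD arrays lay above all control arrays. For Clec10a the differences were 2.19 ± 0.36, 2.74 ± 0.36 and 2.77 ± 0.36 at 1, 2 and 6 weeks (limma, adjusted p = 0.000822, 0.000224 and 0.000185). Clec1b, also named CLEC-2, binds podoplanin and is known from platelets and Kupffer cells. Its difference was 0.94 ± 0.18, 1.31 ± 0.18 and 1.12 ± 0.18 at 1, 2 and 6 weeks (limma, adjusted p = 0.00119, 0.000249 and 0.000624). A second probe of Clec1b was not called at any week (0.46, 0.57 and 0.73), while another gave 0.79, 1.19 and 1.00 and was called at all weeks.

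Clec2 genes encode ligands of natural killer cell receptors, and they did not move together. Clec2i, with control arrays below background at all weeks, was called higher, with differences of 1.81 ± 0.39, 2.20 ± 0.39 and 1.98 ± 0.39 at 1, 2 and 6 weeks (limma, adjusted p = 0.00308, 0.00125 and 0.00217). By the lowest detected signal this was at least 2.44-fold, 2.55-fold and 2.5-fold, but under normexp the differences were only -0.06, 0.08 and 0.30. Clec2d was higher at 1 week, by 1.53 ± 0.49 (limma, adjusted p = 0.0279), and was not called later. That call was lost without control replicate 2 of 1 week (1.03, adjusted p = 0.0941), without CDAHFD replicate 1 (1.82, adjusted p = 0.0666) or without CDAHFD replicate 2 (1.23, adjusted p = 0.124), and with the percentile over all probes (1.53, adjusted p = 0.0621). Clec11a, a secreted growth factor, Clec3b, a secreted plasminogen binder, and Clec1a were not called at any week, though at 1 week Clec3b was called lower when set against the control arrays of the later weeks, 2 and 6 (-0.71, adjusted p = 0.0337). Clec1a measured 28.5 and 27.9 at 1 week, 34.6 and 31.0 at 2 weeks and 13.3 and 22.1 at 6 weeks on CDAHFD, against 17.1 and 15.8, 20.0 and 25.4, and 22.7 and 31.6 at the same weeks on control. At 6 weeks the CDAHFD arrays of Clec1a lay below the control arrays, and at 1 and 2 weeks they lay above them.

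**Figure D3:**
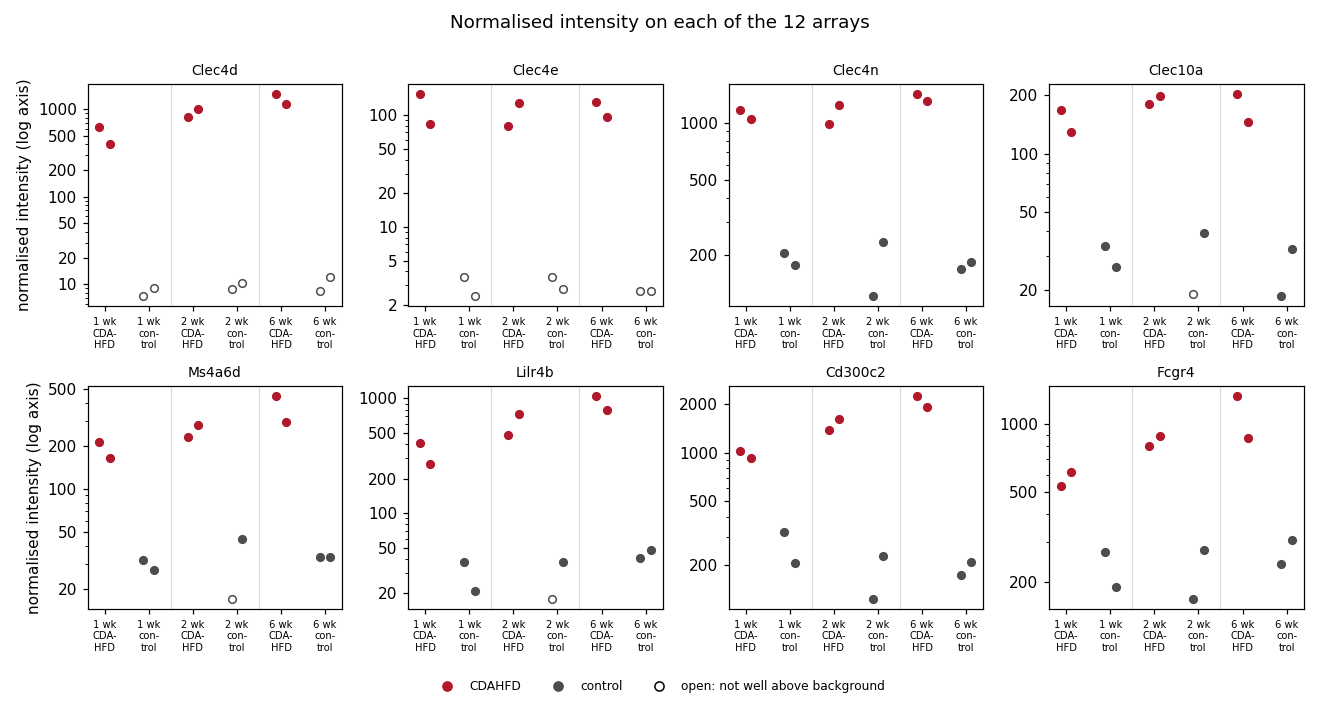
Normalised intensity (y axis, log axis) of 8 receptor genes on each of the 12 arrays, with CDAHFD beside control at 1, 2 and 6 weeks (x axis). Open points were not well above background. In all 8 genes every CDAHFD point lies above every control point, and the control points of Clec4d and Clec4e are all open.

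Of the 4 tested Fcgr genes, 2, 3 and 3 were higher at 1, 2 and 6 weeks and 0 were lower. Beside them 25.9%, 22.9% and 24.5% of all genes were higher. Fcgr4, which binds IgG and signals through the gamma chain, was measured on every array. Fcgr4 read 532 and 617 at 1 week, 804 and 891 at 2 weeks and 1330 and 872 at 6 weeks on CDAHFD, against 271 and 191, 169 and 279, and 241 and 309 at the same weeks on control. The diets did not overlap at any week. Differences of Fcgr4 came to 1.20 ± 0.28, 1.91 ± 0.28 and 1.94 ± 0.28 at 1, 2 and 6 weeks (limma, adjusted p = 0.00402, 0.000417 and 0.000339).

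Fcgr1, the high-affinity IgG receptor, was also called at all 3 weeks. Intensities of Fcgr1 were 111 and 107 at 1 week, 109 and 136 at 2 weeks and 143 and 116 at 6 weeks on CDAHFD, against 50.8 and 38.0, 31.6 and 39.7, and 35.4 and 40.0 at the same weeks on control. The difference of Fcgr1 was 1.18 ± 0.21, 1.73 ± 0.21 and 1.74 ± 0.21 at 1, 2 and 6 weeks (limma, adjusted p = 0.00091, 0.000116 and 9.75e-05). Fcgr3, a low-affinity activating IgG receptor, was not called at 1 week. Fcgr3 measured 275 and 237 at 1 week, 302 and 407 at 2 weeks and 645 and 361 at 6 weeks on CDAHFD, against 161 and 131, 83.5 and 186, and 167 and 212 at the same weeks on control. The lowest CDAHFD array exceeded the highest control array by little, and the differences of Fcgr3 were 0.68 ± 0.38, 1.44 ± 0.38 and 1.32 ± 0.38 at 1, 2 and 6 weeks (limma, adjusted p = 0.119, 0.0134 and 0.019). The call at 2 weeks was lost without control replicate 1 (0.88, adjusted p = 0.0789) or CDAHFD replicate 2 (1.22, adjusted p = 0.0898). At 6 weeks it was lost without control replicate 1 (1.15, adjusted p = 0.109) or CDAHFD replicate 1 (0.87, adjusted p = 0.114).

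Fcgrt, the neonatal Fc receptor that recycles IgG and albumin in hepatocytes and other cells, was not called at any week, at -0.65, -0.22 and -0.48. Fcer1g is the shared gamma chain through which many of these receptors signal. Fcer1g read 3030 and 2870 at 1 week, 3730 and 4110 at 2 weeks and 6220 and 5680 at 6 weeks on CDAHFD, against 1080 and 833, 674 and 874, and 788 and 972 at the same weeks on control. The diets were separate at each week. For Fcer1g the differences were 1.51 ± 0.16, 2.30 ± 0.16 and 2.73 ± 0.16 at 1, 2 and 6 weeks (limma, adjusted p = 5.66e-05, 4.59e-06 and 1.22e-06).

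All 4 Lilr genes were tested. Lilrb4a carries ITIMs and Lilr4b, next to it on chromosome 10, is its near-copy, so a probe for one may read the other, which was not tested. Intensities of Lilrb4a were 4230 and 2910 at 1 week, 4810 and 6190 at 2 weeks and 7870 and 6850 at 6 weeks on CDAHFD, against 140 and 103, 212 and 427, and 403 and 348 at the same weeks on control. The control values of 1 week were lower than those of later weeks. Differences of Lilrb4a came to 4.74 ± 0.32, 4.13 ± 0.32 and 4.26 ± 0.32 at 1, 2 and 6 weeks (limma, adjusted p = 1.29e-05, 1.52e-05 and 9.45e-06). A second, dimmer probe of Lilrb4a gave 3.14, 4.29 and 4.36.

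Lilr4b measured 408 and 268 at 1 week, 478 and 728 at 2 weeks and 1040 and 795 at 6 weeks on CDAHFD, against 37.9 and 21.2, 18.0 and 37.7, and 41.0 and 47.5 at the same weeks on control. The difference of Lilr4b was 3.41 ± 0.40, 4.45 ± 0.40 and 4.33 ± 0.40 at 1, 2 and 6 weeks (limma, adjusted p = 0.000184, 3.37e-05 and 3.22e-05). Lilra6, an activating member, was called higher, with differences of 0.89 ± 0.22, 1.54 ± 0.22 and 1.98 ± 0.22 at 1, 2 and 6 weeks (limma, adjusted p = 0.00431, 0.000291 and 5.11e-05). Lilra5 was called only at 1 week, at 1.64 ± 0.46 (limma, adjusted p = 0.0118), where its control arrays were below background and the bound was at least 1.14-fold. The Lilra5 call was lost without control replicate 2 (0.97, adjusted p = 0.0737) or CDAHFD replicate 2 (1.16, adjusted p = 0.0931) of 1 week. Against the control arrays of the later weeks it was not called either (0.62, adjusted p = 0.219).

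Of 8 tested Ms4a genes, 6, 7 and 7 were higher at 1, 2 and 6 weeks and 1, Ms4a4c, was lower at each. Beside them 25.9%, 22.9% and 24.5% of all genes were higher. With the mean of a gene's probes 7, 8 and 8 were higher and 0 lower, since the probes of Ms4a4c disagree. Ms4a7, known from macrophages, had the largest average difference of its family. Ms4a7 read 402 and 365 at 1 week, 549 and 609 at 2 weeks and 1210 and 1270 at 6 weeks on CDAHFD, against 78.5 and 73.0, 42.0 and 84.8, and 59.0 and 59.0 at the same weeks on control. The CDAHFD values of 6 weeks exceeded those of both earlier weeks. For Ms4a7 the differences were 2.21 ± 0.26, 3.22 ± 0.26 and 4.36 ± 0.26 at 1, 2 and 6 weeks (limma, adjusted p = 9.61e-05, 8.86e-06 and 1.22e-06).

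Ms4a6d and Ms4a6c, near relatives on chromosome 19, were well above background on every CDAHFD array. Intensities of Ms4a6d were 213 and 166 at 1 week, 231 and 279 at 2 weeks and 445 and 297 at 6 weeks on CDAHFD, against 32.0 and 27.2, 17.0 and 44.4, and 33.2 and 33.3 at the same weeks on control. Differences of Ms4a6d came to 2.54 ± 0.38, 3.16 ± 0.38 and 3.42 ± 0.38 at 1, 2 and 6 weeks (limma, adjusted p = 0.000522, 0.000139 and 7.35e-05). At 2 weeks the Ms4a6d difference was 2.48 without control replicate 1 and 3.84 without control replicate 2. Ms4a6c measured 199 and 177 at 1 week, 194 and 264 at 2 weeks and 234 and 248 at 6 weeks on CDAHFD, against 37.9 and 35.1, 21.4 and 43.8, and 40.0 and 44.7 at the same weeks on control. Neither gene had overlapping groups. The difference of Ms4a6c was 2.23 ± 0.29, 2.83 ± 0.29 and 2.47 ± 0.29 at 1, 2 and 6 weeks (limma, adjusted p = 0.000176, 3.6e-05 and 7.35e-05).

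Ms4a4a, a macrophage surface protein, had no control array above background. Ms4a4a read 45.6 and 31.2 at 1 week, 60.8 and 72.8 at 2 weeks and 65.3 and 40.0 at 6 weeks on CDAHFD, against 9.20 and 5.44, 3.68 and 8.39, and 5.76 and 5.93 at the same weeks on control. Ms4a4a was at least 2.38-fold, 4.37-fold and 3.74-fold higher on CDAHFD at 1, 2 and 6 weeks. For Ms4a4a the differences were 2.28 ± 0.44, 3.53 ± 0.44 and 3.09 ± 0.44 at 1, 2 and 6 weeks (limma, adjusted p = 0.00169, 0.000129 and 0.00027). Under normexp it was not called at any week, at 0.03, 0.72 and 0.62 (limma, adjusted p = 0.662, 0.142 and 0.172). Ms4a4d was higher at all weeks, by 0.70 ± 0.20, 0.92 ± 0.20 and 1.25 ± 0.20 at 1, 2 and 6 weeks (limma, adjusted p = 0.00864, 0.00367 and 0.000619). Without CDAHFD replicate 1 of 1 week its call at 1 week was lost (0.43, adjusted p = 0.0902). Ms4a8a was higher at 2 and 6 weeks, by 2.02 ± 0.36 and 1.11 ± 0.36 (limma, adjusted p = 0.00116 and 0.0260), and at 2 weeks this is a bound of at least 3.14-fold. Its call at 6 weeks was lost without control replicate 1 (1.00, adjusted p = 0.122), control replicate 2 (1.21, adjusted p = 0.0658) or CDAHFD replicate 1 (0.70, adjusted p = 0.163), with the percentile over all probes (1.11, adjusted p = 0.0609) and with quantile normalization (0.92, adjusted p = 0.0920). At 1 week Ms4a8a was not called against its own controls (0.52), and against those of 2 and 6 weeks it was (1.46, adjusted p = 0.00333).

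The Cd300 family was mixed: 2, 4 and 3 of its 8 tested genes were higher at 1, 2 and 6 weeks, and 3, 5 and 4 with the mean of a gene's probes. Of all genes 25.9%, 22.9% and 24.5% were higher, so the Cd300 count at 1 week was near the all-gene share. Cd300lb is an activating receptor that signals through DAP12, the product of Tyrobp. Intensities of Cd300lb were 62.1 and 43.2 at 1 week, 78.5 and 95.4 at 2 weeks and 151 and 118 at 6 weeks on CDAHFD, against 3.70 and 10.5, 3.53 and 6.46, and 3.55 and 6.54 at the same weeks on control. All control arrays were below background. Cd300lb was at least 3.26-fold, 5.69-fold and 9.76-fold higher on CDAHFD at 1, 2 and 6 weeks. Differences of Cd300lb came to 2.92 ± 0.51, 4.13 ± 0.51 and 4.76 ± 0.51 at 1, 2 and 6 weeks (limma, adjusted p = 0.00105, 0.000131 and 4.43e-05). The difference at 1 week was 2.18 without control replicate 1 and 3.69 without control replicate 2, and under normexp it was 0.28 and not called (adjusted p = 0.808).

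Cd300c2 measured 1020 and 932 at 1 week, 1380 and 1610 at 2 weeks and 2230 and 1910 at 6 weeks on CDAHFD, against 320 and 206, 124 and 227, and 174 and 210 at the same weeks on control. This activating member was above background on every array and the diets were separate. The difference of Cd300c2 was 1.79 ± 0.28, 3.10 ± 0.28 and 3.40 ± 0.28 at 1, 2 and 6 weeks (limma, adjusted p = 0.000566, 2.31e-05 and 1.04e-05). Cd300ld is an activating member whose control replicate 1 of 1 week fell in the dim corner. Cd300ld read 482 and 498 at 1 week, 695 and 696 at 2 weeks and 981 and 859 at 6 weeks on CDAHFD, against 6.62 and 193, 154 and 213, and 229 and 253 at the same weeks on control. For Cd300ld the differences were 3.65 ± 1.38, 1.89 ± 1.38 and 1.90 ± 1.38 at 1, 2 and 6 weeks (limma, adjusted p = 0.0715, 0.319 and 0.314). With the dim spots masked, the differences were 1.22, 1.89 and 1.90 and were called at all 3 weeks (limma, adjusted p = 0.000565, 1.34e-05 and 1.08e-05).

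Cd300a, an inhibitory receptor for phosphatidylserine, was higher at 2 and 6 weeks, by 1.99 ± 0.41 and 1.35 ± 0.41 (limma, adjusted p = 0.00281 and 0.0199). The Cd300a call at 6 weeks was lost without control replicate 2 (0.97, adjusted p = 0.144) or CDAHFD replicate 1 (0.91, adjusted p = 0.125), and with quantile normalization (1.17, adjusted p = 0.0637). At 1 week Cd300a was not called against its own controls (0.62), and against those of 2 and 6 weeks it was (1.77, adjusted p = 0.00245). Cd300e was called only at 2 weeks, at 1.03 ± 0.37 (limma, adjusted p = 0.0458), and that call was lost in 5 of the 12 fits that left out 1 array, for example without control replicate 1 of 2 weeks (0.54, adjusted p = 0.302). It was also lost with the percentile over all probes (1.03, adjusted p = 0.0885), quantile normalization (0.87, adjusted p = 0.103) and no filter (1.23, adjusted p = 0.0522). Cd300ld3 was not called at any week.

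Among the Siglecs, Siglecf, known from eosinophils and some macrophages, and Siglec1, the macrophage sialoadhesin, were higher. Intensities of Siglecf were 40.2 and 25.8 at 1 week, 74.7 and 78.0 at 2 weeks and 133 and 106 at 6 weeks on CDAHFD, against 14.8 and 9.36, 13.3 and 5.43, and 11.6 and 5.87 at the same weeks on control. Each CDAHFD array exceeded all control arrays. Siglecf was at least 2.03-fold, 5.02-fold and 8.70-fold higher on CDAHFD at 1, 2 and 6 weeks. Differences of Siglecf came to 1.33 ± 0.46, 3.12 ± 0.46 and 3.82 ± 0.46 at 1, 2 and 6 weeks (limma, adjusted p = 0.0294, 0.000457 and 0.000107). The call at 1 week was lost without control replicate 2 (1.01, adjusted p = 0.145) or CDAHFD replicate 1 (1.04, adjusted p = 0.193) and with the percentile over all probes (1.33, adjusted p = 0.0640), and at 2 weeks the difference was 3.77 without control replicate 1 and 2.45 without control replicate 2. The 4 eosinophil markers Prg2, Epx, Ccr3 and Il5ra were all below the detection filter.

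Siglec1 measured 109 and 163 at 1 week, 137 and 134 at 2 weeks and 125 and 157 at 6 weeks on CDAHFD, against 50 and 40.9, 23.8 and 39.7, and 44.5 and 42.1 at the same weeks on control. The difference of Siglec1 was 1.43 ± 0.27, 2.09 ± 0.27 and 1.66 ± 0.27 at 1, 2 and 6 weeks (limma, adjusted p = 0.00122, 0.000148 and 0.000601). A second, dim probe of Siglec1 was not called, at -0.42, -0.70 and -0.01. Siglecg, known from B cells, was not called, and its control arrays were below background at all weeks.

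Other calls also depended on the background correction. Under normexp Clec2i was called at no week, with differences of -0.06, 0.08 and 0.30 (limma, adjusted p = 0.484, 0.873 and 0.612). Lilra5 (-0.41, adjusted p = 0.118) and Siglecf (-0.17, adjusted p = 0.308) likewise lost their calls at 1 week with a turned direction. The calls at 1 week were lost for Clec4b1 (0.62, adjusted p = 0.202), Cd300lb (0.28, adjusted p = 0.808), Fcgr1 (0.35, adjusted p = 0.607), Siglec1 (0.69, adjusted p = 0.0874) and Ms4a4d (0.22, adjusted p = 0.949). At 2 weeks they were lost for Siglecf (0.75, adjusted p = 0.121), Ms4a4b (0.66, adjusted p = 0.110), Ms4a4d (0.46, adjusted p = 0.278), Ms4a8a (0.39, adjusted p = 0.530), Cd300e (0.53, adjusted p = 0.284) and Cd300a (0.28, adjusted p = 0.719). At 6 weeks they were lost for Ms4a8a (0.21, adjusted p = 0.778) and Cd300a (0.33, adjusted p = 0.519). Also lost were the calls of Clec2d at 1 week (1.68, adjusted p = 0.0636), Clec2h at 2 weeks (-1.11, adjusted p = 0.0811) and Clec16a at 6 weeks (-0.50, adjusted p = 0.0638). With the mean of its probes, Siglec1 was not called at 1 week (0.50, adjusted p = 0.124) or 2 weeks (0.69, adjusted p = 0.0800).

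In all, 7 genes were lower at 1 or more weeks, counting Ms4a4c, whose probes disagree. The share of all genes lower at 1 or more weeks was not counted. Clec2e, a ligand-type lectin of the Clec2 group, was lower throughout. Clec2e read 57.5 and 70.5 at 1 week, 49.6 and 34.3 at 2 weeks and 53.6 and 33.8 at 6 weeks on CDAHFD, against 222 and 150, 117 and 103, and 122 and 117 at the same weeks on control. Every CDAHFD array lay below every control array. For Clec2e the differences were -1.65 ± 0.27, -1.47 ± 0.27 and -1.53 ± 0.27 at 1, 2 and 6 weeks (limma, adjusted p = 0.00166, 0.00246 and 0.00157).

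Clec2h, whose product is a ligand of a natural killer cell receptor, was called lower at 2 and 6 weeks. Intensities of Clec2h were 867 and 947 at 1 week, 168 and 542 at 2 weeks and 164 and 192 at 6 weeks on CDAHFD, against 885 and 616, 1000 and 679, and 768 and 595 at the same weeks on control. At 1 week the diets overlapped. Differences of Clec2h came to 0.17 ± 0.49, -1.5 ± 0.49 and -1.96 ± 0.49 at 1, 2 and 6 weeks (limma, adjusted p = 0.656, 0.0491 and 0.0149). The call at 2 weeks was lost in 9 of the 12 fits that left out 1 array, for example without CDAHFD replicate 1 of 2 weeks (-0.66, adjusted p = 0.151), and it was -2.35 without CDAHFD replicate 2. At 6 weeks the call was lost without control replicate 1 (-1.78, adjusted p = 0.0842), CDAHFD replicate 1 (-1.88, adjusted p = 0.0829) or CDAHFD replicate 2 (-2.06, adjusted p = 0.0642). The replicate number as a block also ended the 2-week call (-1.5, adjusted p = 0.0758), as did a fit of the first slide alone (-1.5, adjusted p = 0.126), no filter (-1.29, adjusted p = 0.0603) and the mean of probes (-1.5, adjusted p = 0.0505).

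Clec14a, an endothelial lectin, was lower at 6 weeks. Clec14a measured 104 and 78.4 at 1 week, 73.8 and 77.3 at 2 weeks and 63.2 and 47.8 at 6 weeks on CDAHFD, against 80.2 and 97.6, 85.7 and 121, and 91.6 and 137 at the same weeks on control. The difference of Clec14a was -0.10 ± 0.26, -0.48 ± 0.26 and -1.06 ± 0.26 at 1, 2 and 6 weeks (limma, adjusted p = 0.936, 0.217 and 0.00905). Cd300lg, known from endothelium, was likewise called at 6 weeks. Cd300lg read 271 and 244 at 1 week, 246 and 227 at 2 weeks and 235 and 130 at 6 weeks on CDAHFD, against 391 and 299, 365 and 378, and 312 and 351 at the same weeks on control. The Cd300lg groups did not overlap within a week. For Cd300lg the differences were -0.54 ± 0.24, -0.71 ± 0.24 and -0.96 ± 0.24 at 1, 2 and 6 weeks (limma, adjusted p = 0.192, 0.0538 and 0.0108). Of 6 markers of sinusoidal endothelium, 4 were also lower at 6 weeks and 1 was higher, and their summed intensity was 9260 to 10700 on CDAHFD, against 14400 to 14700 on control. Their part in these results was not tested.

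Clec16a, an intracellular protein of endosomes rather than a surface lectin, was lower at 6 weeks. Intensities of Clec16a were 61.3 and 61.4 at 1 week, 36.2 and 52.9 at 2 weeks and 45.5 and 25.2 at 6 weeks on CDAHFD, against 62.8 and 68.9, 63.8 and 63.8, and 62.0 and 74.2 at the same weeks on control. Differences of Clec16a came to -0.23 ± 0.28, -0.59 ± 0.28 and -1.04 ± 0.28 at 1, 2 and 6 weeks (limma, adjusted p = 0.794, 0.152 and 0.0151). At 6 weeks each of these 3 calls was lost without control replicate 2 or CDAHFD replicate 2. Without control replicate 2, Clec14a was at -0.78 (adjusted p = 0.0879), Cd300lg at -0.88 (adjusted p = 0.0678) and Clec16a at -0.91 (adjusted p = 0.0943). Without CDAHFD replicate 2, Clec14a was at -0.85 (adjusted p = 0.0605), Cd300lg at -0.52 (adjusted p = 0.0598) and Clec16a at -0.60 (adjusted p = 0.114). In a fit of the slide of week 6 alone, Cd300lg (-0.96, adjusted p = 0.0631) and Clec16a (-1.04, adjusted p = 0.0668) were not called.

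Siglece, an inhibitory Siglec of neutrophils and macrophages, was lower only at 1 week. Siglece measured 146 and 178 at 1 week, 168 and 159 at 2 weeks and 145 and 146 at 6 weeks on CDAHFD, against 253 and 239, 158 and 166, and 152 and 146 at the same weeks on control. The control arrays of 1 week were the brightest of the 6. The difference of Siglece was -0.74 ± 0.14, -0.04 ± 0.14 and -0.07 ± 0.14 at 1, 2 and 6 weeks (limma, adjusted p = 0.00531, 0.948 and 0.862). Without CDAHFD replicate 1 the call was lost (-0.57, adjusted p = 0.0581), under median centring its p was 0.138, and against the later control arrays the difference was -0.01 (adjusted p = 0.758).

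The remaining gene lower at 1 week was Ms4a4c, and its probes disagreed. The probe used, the brightest, was at 36300 and 28300 at 1 week, 26400 and 29600 at 2 weeks and 30800 and 21000 at 6 weeks on CDAHFD, against 56500 and 54200, 61300 and 62600, and 50100 and 51500 at the same weeks on control. For Ms4a4c the differences were -0.92 ± 0.18, -1.20 ± 0.18 and -1.03 ± 0.18 at 1, 2 and 6 weeks (limma, adjusted p = 0.00533, 0.000578 and 0.00121). Another probe of Ms4a4c gave 2.95, 2.04 and 1.75 and the other one gave 3.31, 3.62 and 2.49, all called higher, so the direction of this gene is not settled. With quantile normalization the used probe was not called at 1 week (-0.21, adjusted p = 0.565). Cd300lf, an inhibitory receptor that binds phosphatidylserine, showed the same kind of split: its used probe was not called at -0.38, -0.52 and -0.34, while the others gave 3.11, 2.86 and 2.69, and 2.74, 2.73 and 2.67. Which transcripts each probe reads was not tested.

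**Figure D4:**
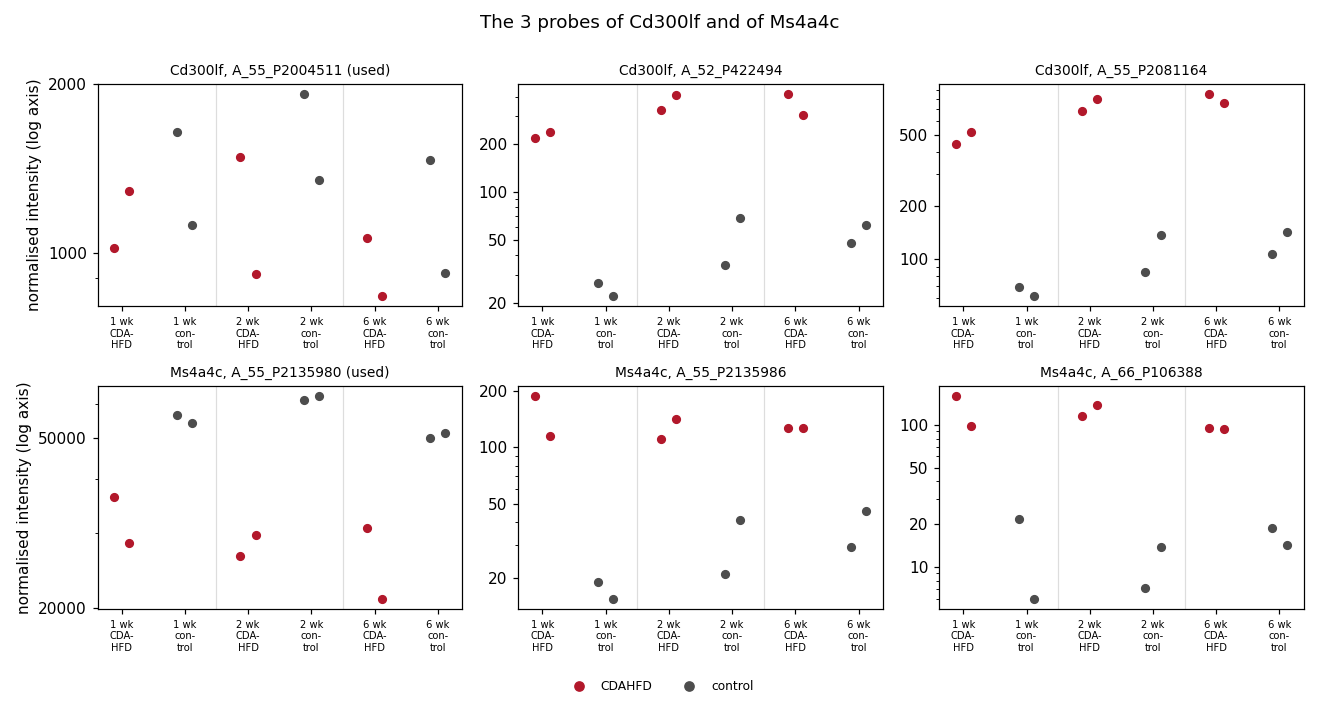
Normalised intensity (y axis, log axis) of the 3 probes of Cd300lf (upper panels) and of Ms4a4c (lower panels) on each array, with CDAHFD beside control at 1, 2 and 6 weeks. The probe used stands left. The 2 other probes of each gene are higher on CDAHFD at every week, while the used probe of Ms4a4c is lower and that of Cd300lf overlaps.

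The course over weeks was tested by whether the diet difference itself changed. This was called in 2 of the 46 genes, Ms4a7 (limma F test, adjusted p = 0.0392) and Ms4a4b (adjusted p = 0.0324), beside 2.41% of all genes. Ms4a4b, known from T and natural killer cells, was higher at all weeks, by 2.80 ± 0.23, 1.16 ± 0.23 and 1.35 ± 0.23 at 1, 2 and 6 weeks (limma, adjusted p = 1.32e-05, 0.00192 and 0.00074). Ms4a4b read 209 and 154 at 1 week, 139 and 153 at 2 weeks and 140 and 158 at 6 weeks on CDAHFD, against 27.0 and 20.4, 55.0 and 72.3, and 51.2 and 63.6 at the same weeks on control. Its CDAHFD values were alike at all weeks, and its control values of 1 week were below those of later weeks. Clec1a, Cd300c2, Siglecf and Fcer1g had the next smallest p and were not called (adjusted p = 0.137, 0.103, 0.126 and 0.0593).

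Within CDAHFD, 3 receptor genes changed between weeks, beside 3.10% of all genes: Ms4a7 (limma F test, adjusted p = 0.0172), Fcer1g (adjusted p = 0.0239) and Clec4d (adjusted p = 0.0468). At 6 weeks minus 1 week on CDAHFD, 5 genes were higher, namely Cd300c2, Clec4d, Fcer1g, Ms4a7 and Siglecf (3.88% of all genes), and Clec2h was lower (3.01%). At 2 weeks minus 1 week 0 of the 46 were called (0.281% of all genes), and 7 had an unadjusted p under 0.05, as had 10.4% of all genes. Week 6 lay on its own slide, so week and slide cannot be told apart within a diet. Within control, 4 genes changed between weeks, beside 11.5% of all genes: Clec4a3, Lilrb4a, Ms4a4b and Siglece. In each of the 4, the control pair of 1 week stood below the later pairs, except Siglece, where it stood above them.

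**Figure D5:**
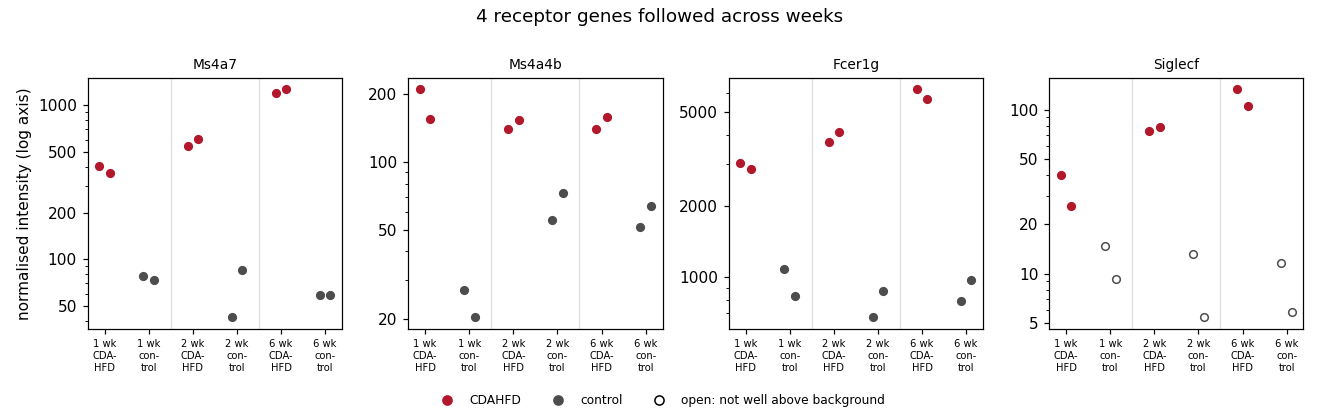
Normalised intensity (y axis, log axis) of Ms4a7, Ms4a4b, Fcer1g and Siglecf on each array, with CDAHFD beside control at 1, 2 and 6 weeks (x axis). Open points were not well above background. Ms4a7 reached 1210 and 1270 on CDAHFD at 6 weeks, against 59.0 and 59.0 on control, while Ms4a4b stayed between 139 and 209 on CDAHFD.

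Many partners that relay these receptors' signals were higher too. Of 23 such genes 22 were tested, and 17, 18 and 17 were higher and 0 lower at 1, 2 and 6 weeks. Of all genes 25.9%, 22.9% and 24.5% were higher. The medians of the 22 were 1.64, 1.84 and 1.97, or 1.30, 1.64 and 1.94 with genes below background at their bound. Card9, Lat2, Pik3cg and Pik3r5 entered the test only through their CDAHFD arrays, which had to be high for that. Lat2, an adaptor of mast cells, B cells and myeloid cells, was below background on every control array, at fitted differences of 4.27, 5.11 and 5.30, which are no bound. Inpp5d, which encodes the lipid phosphatase SHIP1 of ITIM signalling, was higher by 2.02, 2.36 and 2.25. Syk, the kinase that ITAMs recruit, was higher by 2.14, 2.80 and 3.16. All 3 genes were called at each week, and under normexp Lat2 was not called at 1 week (0.71, adjusted p = 0.170). Tyrobp, the adaptor DAP12, was named after its values were seen, at 1.79, 2.61 and 2.81 (limma, adjusted p = 0.000268, 2.85e-05 and 1.48e-05). Ptpn11, a phosphatase used by many cell types, was not called, at -0.00, 0.07 and 0.12.

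Markers of cells that carry these receptors were read in the same arrays. Of all genes tested, 25.9%, 22.9% and 24.5% were higher at 1, 2 and 6 weeks and 15.0%, 14.9% and 16.2% lower. Some markers entered the test only through their CDAHFD arrays, which had to be high for that. Here these were Ccr2, Chil3, F13a1, Gpnmb, Cd163, Retnlg, Cxcr2 and Mmp8. Of 7 tested monocyte markers 6, 7 and 7 were higher, with summed intensities of 12600 to 16800 on CDAHFD, against 3860 to 8000 on control. Of 6 markers of lipid-associated macrophages 5, 5 and 6 were higher, and Fabp5 was lower at 1 week. Of 8 Kupffer cell markers 4, 2 and 3 were higher and 0, 0 and 1 lower. Their summed intensity was 31000 to 43900 on CDAHFD, against 13500 to 22100 on control, and Clec4f, a defining marker, was not called at any week (0.33, 0.24 and 0.11). Of 7 tested neutrophil markers 3, 4 and 4 were higher and 0 lower, with summed intensities of 21000 to 23800 on CDAHFD, against 22600 to 30100 on control. A sum of linear intensities is carried mostly by its brightest markers. It therefore need not move with the count of called markers and is no measure of cell number.

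Markers of other cell types moved as well. Among them Flt3, Cd209a, Klrd1, Cox6a2, Cd5 and Itga2b entered the test only through their CDAHFD arrays. Of 4 tested markers of conventional dendritic cells 3 were higher at each week, with summed intensities of 217 to 292 on CDAHFD, against 64.9 to 87.6 on control. Of 4 tested natural killer cell markers 3 were higher at each week, at sums of 923 to 1390 on CDAHFD, against 564 to 826 on control. B cell markers were higher in 4, 1 and 1 of 4, with sums at 1 week of 350 to 450 on CDAHFD, against 137 to 170 on control. Of 5 T cell markers 3, 2 and 3 were higher and 2, 0 and 0 lower. Of 4 markers of plasmacytoid dendritic cells 2 were higher at each week and 1, 1 and 0 lower, and of 3 platelet markers only Pf4 was higher. No hepatocyte marker was higher, 5, 4 and 2 of 6 were lower, and their sums were 149000 to 191000 on CDAHFD, against 190000 to 349000 on control. The part of these cells in the receptor values was not tested.

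Of the 72 receptor genes with a probe, 26 were never above background on both arrays of a group and have no value here. Among them Clec12a and Clec5a, myeloid lectins, Fcer1a and Ms4a2, subunits of the IgE receptor of mast cells and basophils, and Fcer2a, the low-affinity IgE receptor of B cells, were not measured. Of 8 markers of mast cells and basophils, Cpa3, Mcpt4, Mcpt8 and Cma1 were below the same filter. Of the 4 tested, Hdc was higher at all 3 weeks (1.07, 1.21 and 1.04), Kit was higher at 1 week (0.47), Tpsb2 was lower at 6 weeks (-1.30) and Gata2 was not called. The others were Cd300ld4, Clec12b, Clec18a, Clec2f, Clec2g, Clec2l, Clec2m, Clec3a, Clec4a2, Clec4a4, Clec4b2, Siglec15 and Ms4a3, Ms4a5, Ms4a6b, Ms4a10, Ms4a13, Ms4a15, Ms4a18, Ms4a19 and Ms4a20. The 7 genes Cd300c, Cd300ld2, Cd300ld5, Clec2j, Clec7a, Ms4a12 and Ms4a14 had no named probe and were not analysed here.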

How the data were processed

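Liver RNA was measured on 12 single-colour Agilent arrays, 2 in each of 6 groups taken from the labels, after labelling 150 ng of RNA with Cy3, per the labels' protocols. The deposited intensities are linear and were background-subtracted and detrended within each array by Feature Extraction, with no scaling between arrays, per the file headers, which give version 11.5.1.1, while the submitters' processing notes give 10.7. No gene spot was saturated (0 of 59305). The number of arrays limits the precision.

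Probes were named by accession through RefSeq (GRCm38.p6, names and promoter windows only), which named 28664 of 55681. Log2 processed intensity was reduced by each array's 75th percentile, taken from the 20137 probes that all 12 arrays detected. Genes were tested if both arrays of some group detected a probe, meaning that it was well above background, and the brightest such probe was used. Groups were compared with limma 3.58.1 (R 4.3.3; 6 group means, eBayes with trend and robust, 6 residual degrees of freedom, Benjamini-Hochberg over 13900 genes, threshold 0.05), checked on simulated data. All adjusted p come from it. For an "at least" fold, the dim group's arrays were set to the lowest detected signal of the array, or to the gene's own where that was higher. Normexp (offset 50) used median signals in place of mean signals. Other settings tried are in the closing section.

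The members, marker lists and settings were chosen with earlier results of these data known. Per-array values are given, in each family, for the genes with the largest average difference (6 Clec, 4 Ms4a, 3 Cd300, 3 Fcgr, 2 each of Siglec and Lilr, and Fcer1g), for each gene called lower at any week, and for the 6 genes with the smallest p for a changed diet difference; of the signalling list, the 3 with the smallest p are named.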

Additional observations from a re-analysis of the deposited data

Results flagged for a closer look

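The diet difference changed between weeks in 2 receptor genes, by the limma F test over all genes. Ms4a4b had an adjusted p of 0.0324, with differences of 2.80, 1.16 and 1.35 at 1, 2 and 6 weeks, where every CDAHFD array exceeded every control array and the control pair of 1 week was the lowest. Ms4a7 had an adjusted p of 0.0392, with differences of 2.21, 3.22 and 4.36, where the CDAHFD arrays of 6 weeks were the highest. The number of such genes ranged between 0 and 4 when single arrays were left out, so neither call is firm.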

How the results depend on the processing

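The counts of genes higher on CDAHFD changed by over 1.5 times with a filter on all arrays, which leaves fewer genes. It gave 15, 16 and 15 at 1, 2 and 6 weeks. Under normexp the counts were 18, 22 and 25, in place of 27, 29 and 28, so the count at 1 week changed by 1.5 times. Genes lower at 1 week numbered 5 with the percentile over all probes, 6 with normexp and 9 with no filter, which adds receptor genes never detected. Genes lower at 2 weeks numbered 7 with the percentile over all probes, 6 with quantile normalization and 1 with the mean of a gene's probes. The shares of all genes called under these settings are not given here. These counts therefore do not tell a change in the receptor genes from a change in calls over all genes. Genes whose diet difference changed between weeks numbered 1 with median centring and 0 with eBayes without trend and robust, and under that setting 1 gene changed between weeks on CDAHFD. Leaving out each array gave 2 to 5 genes lower at 1 week, 3 to 6 lower at 6 weeks, 0 to 4 with a changed diet difference and 0 to 3 that changed on CDAHFD. Directions turned under the mean of probes for Cd300lf (1.82, 1.69 and 1.68 at 1, 2 and 6 weeks) and Ms4a4c (1.78, 1.48 and 1.07), whose probes disagree, and under normexp at 1 week for Clec2i (-0.06), Lilra5 (-0.41) and Siglecf (-0.17). A direction was read on the difference after subtracting the all-gene median. This rule was set after the values had been seen, and without the subtraction Clec2i at 2 weeks (0.08) and Ms4a4a at 1 week (0.03) under normexp, and Siglece at 1 week against later controls (-0.01), would turn too. Under normexp 25 results lost their call, the most of any setting, and the cause was not tested. Over all settings, 3286 results kept direction and call, 87 lost a call and 67 gained one. Of the 9 that turned, 3 are among the lost calls, 3 among the gained ones and 3 were called both ways. The replicate block left 27, 29 and 28 genes higher and 3, 3 and 6 lower, ended the Clec2h call at 2 weeks (-1.5, adjusted p = 0.0758) and added Cd300lg at 2 weeks (-0.71, adjusted p = 0.0400). Over the 15 pairs of groups, the differences of replicate 1 minus replicate 2 correlated at -0.14 to 0.22, with 4 pairs over 0.1. These correlations were weak, but they cannot exclude that the replicate numbers pair the arrays. The dimmest genes are limited by background: 8 had no control array above it.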
